A study of Rattus norvegicus with 4 samples.

Results

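The genes described here encode the subunits, activators, inhibitor and assembly factors of the proteasome, including the interferon-inducible immunoproteasome. They were taken as every gene on the array whose rat RefSeq symbol starts with Psma, Psmb, Psmc, Psmd, Psme, Psmf or Psmg followed by a digit, a rule that used no measured value. It named 47 of the 16579 genes measured. RefSeq holds 102 entries under these symbols, of which 54 are coding genes and 48 are pseudogenes. The coding genes Psmb11, Psmg1, Psmg3, Psmb6l1, Psmb3l1, Psmb3l2 and Psmg4l1 were not measured.

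The samples were 4 cultures of NR8383, a cell line of macrophages first obtained by washing the lung of a normal rat, used after 20 passages. All 4 belonged to 1 group, seeded for 48 h and then exposed for 4 h to NRCWE042, a carbon nanotube carrying COOH groups, at 6.8 cm2 of particle surface per cm2 of culture. RNA of each culture was hybridised to its own 1-colour Agilent array, and the study's design calls the cultures biological replicates. The unexposed cultures that the design also names were not analysed here, so no value below is a response to the nanotubes, and no test between conditions was possible. An established line grown alone also lacks the epithelium and the other immune cells of a lung.

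The proteasome is the barrel-shaped protease that degrades proteins tagged with ubiquitin. Its 20S core is built of rings of alpha subunits, which gate the barrel, around rings of beta subunits, of which 3 carry the catalytic sites. A 19S cap, made of a base with an ATPase ring and a lid with a deubiquitinase, recognises, unfolds and feeds in the substrate, and other activators can take the place of that cap. In macrophages, interferon replaces the catalytic subunits by those of the immunoproteasome, which cuts peptides for presentation on MHC class I molecules.

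Levels are the log2 of the processed spot intensity minus the log2 of that array's 75th percentile over sample probes, so that 0 is the 75th percentile and 1 unit is a doubling. Each probe binds with its own strength, so a level was followed across the arrays and not set against that of another gene. A gene was called detected where its probe was well above background on all 4 arrays. The 75th percentile itself was 128, 131, 98.5 and 49.0 intensity units on replicates 1 to 4, so replicate 4 was the dimmest array, and from 38.8% of probes on replicate 1 to 31.1% on replicate 4 were well above background. The closest arrays were replicates 1 and 2, with a median difference of 0.04 log2 units over the detected proteasome genes. That pair differed beyond the noise between spots for 64.0% of 994 probes printed 10 times, which does not tell separate cultures from repeated hybridisations of 1 RNA. They were kept as separate replicates because the design calls them so. Of 12 genes listed as markers of alveolar macrophages, 9 were detected, while Itgax was well above background on 1 array and Marco and Adgre1 on 0. No measured marker of lung epithelium, T cells, B cells, fibroblasts or testis germ cells was well above background on any of the 4 arrays (Cd79a of the B cell list was not measured), and of the thymic cortical epithelium list Foxn1 was so on 1 array.

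An area of low signal lay on the array of replicate 3. The area was defined as the largest patch of adjoining blocks whose median on replicate 3 lay over 0.5 log2 units below the other arrays. A low median on replicate 3 thus follows from the definition and is no separate measure of the area. It held 38 blocks of 8 by 8 spots, and 797 of its spots were well above background on all 4 arrays. Against the mean of replicates 1 and 2, those spots had a median of -1.08 log2 units on replicate 3 and -0.29 on replicate 4, where 22008 spots elsewhere had 0.10 and 0.14. The only spot of Psmc3 lay in this area, as did 1 of the 10 spots each of Psma7 and Psmb4. The only spots of Psma6, Psmd3 and Psmd12 lay in blocks beside it, and so did 1 spot of Psmb4 and 2 spots of Psme2.

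Nearly the whole set was present. Of the 47 genes, 46 were detected, where 44.4% of all measured genes were. The exception was Psma8, the alpha subunit that replaces Psma7 in the testis. Its levels were -1.77, -2.04, -1.50 and -1.93 on replicates 1 to 4, and it was well above background on all of these except replicate 4. Neither of the germ cell markers Ddx4 and Dazl was detected on an array. Since RNA of whole cultures was measured, fewer cells expressing a gene and less RNA per cell cannot be told apart.

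The median level of the 46 detected genes was 5.21, and 39 of them lay above the median of 2.36 of all 7363 detected genes, as probe signals and not as transcript numbers. The median SD over the 4 arrays was 0.19 log2 units, against 0.25 for all detected genes, and 30 of the 46 were below that value. An SD of 0.19 over 4 arrays gives a mean a half-width of 0.31 log2 units at 95% confidence, or 1.24-fold, which is the precision behind a typical value here. An SD above 0.5 was found for 3 of the 46 (6.52%), namely Psmc3, Psmb10 and Psma6, where 11.6% of all detected genes had one. These values depend on the processing: 35 of the 46 had an SD above 0.5 and the median was 0.70 when arrays were scaled to their spike-in signal, and 6 had one with normexp. The share of all detected genes is not given for these settings, so the counts are no trait of the proteasome genes. With spike-in scaling the median deviation of all detected genes was itself 0.37, 0.49, -0.09 and -0.75 on replicates 1 to 4. The plot of every gene's level on each array shows the wide rows of Psmc3, Psmb10 and Psma6 beside many rows in which the 4 symbols nearly coincide.

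**Figure D1:**
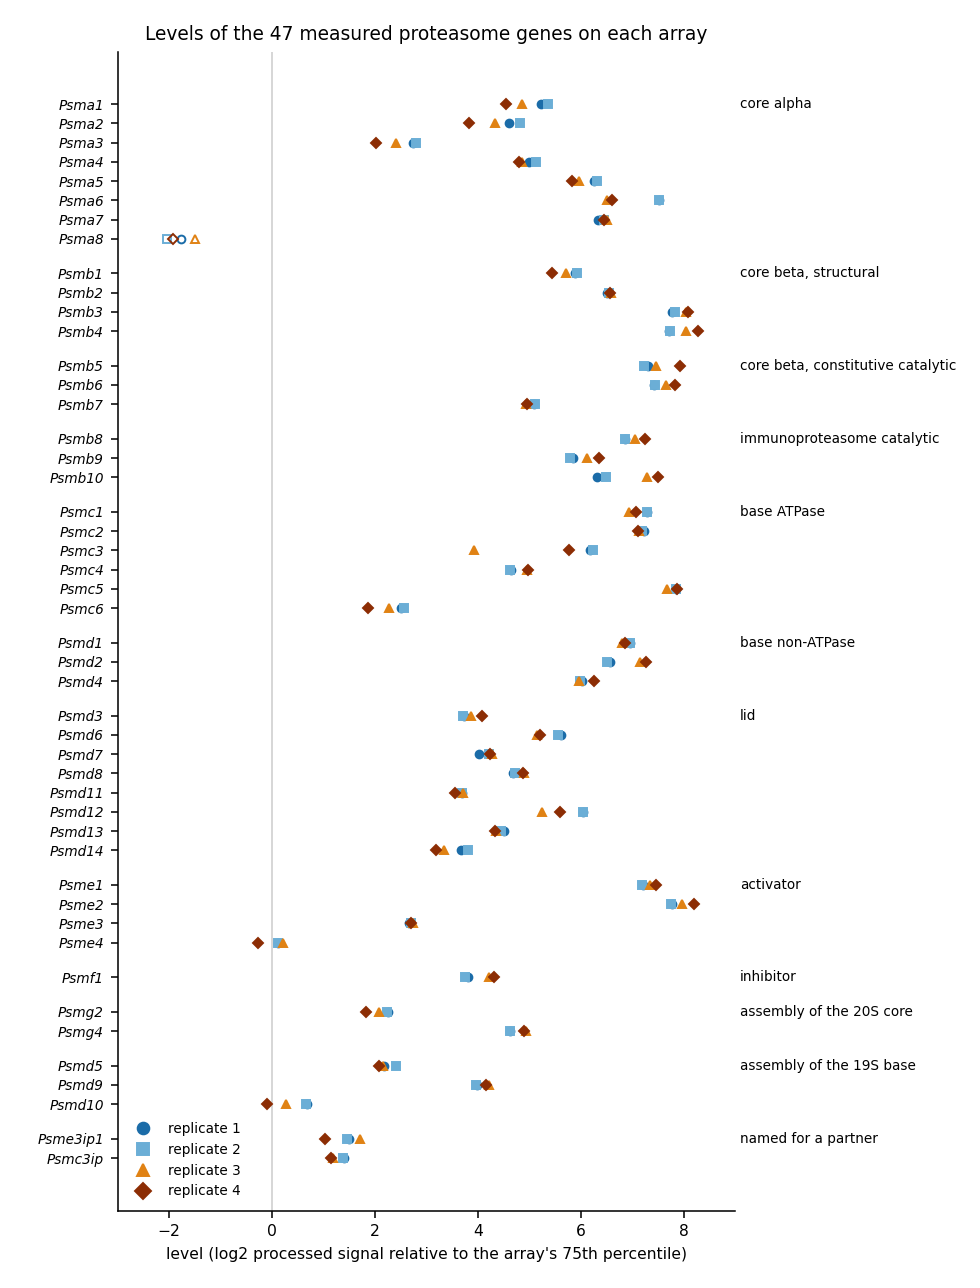
Level of each of the 47 measured proteasome genes on each of 4 arrays, in log2 units relative to the array's 75th percentile, grouped by role; filled symbols mark genes detected on all 4 arrays and open symbols Psma8. Rows are read along and not against each other; Psmc3 on replicate 3 (3.93) and Psmb10 (6.32 to 7.51) are spread most visibly.

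The immunoproteasome genes are described first, because the 3 of them and their 3 constitutive counterparts form direct pairs. Psmb8, Psmb9 and Psmb10 replace Psmb5, Psmb6 and Psmb7, which carry the chymotrypsin-like, caspase-like and trypsin-like activities. All 6 were detected on every array. For the control regions of these genes, RefSeq gives a window of 250 bases before to 50 bases after the start of the gene in the rat build GRCr8. The windows of Psmb10 (chr19:50743243-50743542, minus strand), Psmb8 (chr20:4656982-4657281, minus strand), Psmb9 (chr20:4668750-4669049, plus strand) and the activator gene Psme2 (chr15:33052702-33053001, minus strand) are shown as interferon-inducible members. Capitals mark GAAA followed by any 2 bases and GAAA again, the core of the interferon-stimulated response element read by interferon regulatory factors, on either strand in Psmb10, Psmb8 and Psme2. In Psmb9, whose window holds no such match, they mark CCAAT, the box bound by NF-Y, here on the minus strand and after the gene start. The window of Psme1, which is also interferon-inducible, holds neither motif and is not shown.
Psmb10: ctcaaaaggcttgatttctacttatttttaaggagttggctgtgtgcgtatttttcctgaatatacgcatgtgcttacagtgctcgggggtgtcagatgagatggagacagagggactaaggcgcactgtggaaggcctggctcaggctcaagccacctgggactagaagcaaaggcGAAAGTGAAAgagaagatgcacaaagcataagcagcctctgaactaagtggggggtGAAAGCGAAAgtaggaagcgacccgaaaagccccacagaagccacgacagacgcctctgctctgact
Psmb8: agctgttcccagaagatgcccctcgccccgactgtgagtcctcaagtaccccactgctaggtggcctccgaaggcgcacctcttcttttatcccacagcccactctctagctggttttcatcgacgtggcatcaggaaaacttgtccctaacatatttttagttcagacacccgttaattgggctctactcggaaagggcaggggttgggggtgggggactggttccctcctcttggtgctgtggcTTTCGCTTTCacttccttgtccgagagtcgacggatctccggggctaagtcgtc
Psmb9: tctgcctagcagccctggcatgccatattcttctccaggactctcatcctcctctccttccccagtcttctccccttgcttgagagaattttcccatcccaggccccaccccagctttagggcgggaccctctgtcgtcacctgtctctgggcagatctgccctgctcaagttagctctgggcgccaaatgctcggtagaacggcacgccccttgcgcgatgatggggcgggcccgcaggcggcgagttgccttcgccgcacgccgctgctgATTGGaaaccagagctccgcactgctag
Psme2: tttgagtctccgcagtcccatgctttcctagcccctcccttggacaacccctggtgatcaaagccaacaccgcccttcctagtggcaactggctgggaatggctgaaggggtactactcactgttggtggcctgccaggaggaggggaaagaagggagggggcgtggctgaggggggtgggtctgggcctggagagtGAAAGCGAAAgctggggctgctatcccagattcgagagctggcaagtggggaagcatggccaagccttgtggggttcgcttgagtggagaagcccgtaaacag

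The windows of the constitutive counterparts Psmb5 (chr15:32047330-32047629, minus strand) and Psmb6 (chr10:55737638-55737937, plus strand) are shown because they hold a match to another motif, with capitals marking TGACNNNGC. That motif is the core of the antioxidant response element, which is read by NFE2L2 and by NFE2L1, the factor that restores proteasome genes after proteasome inhibition.
Psmb5: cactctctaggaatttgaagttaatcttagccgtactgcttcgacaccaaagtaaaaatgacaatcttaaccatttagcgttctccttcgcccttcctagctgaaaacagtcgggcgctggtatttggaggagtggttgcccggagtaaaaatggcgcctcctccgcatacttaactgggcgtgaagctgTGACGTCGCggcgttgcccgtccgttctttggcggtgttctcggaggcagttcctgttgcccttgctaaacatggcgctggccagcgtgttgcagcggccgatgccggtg
Psmb6: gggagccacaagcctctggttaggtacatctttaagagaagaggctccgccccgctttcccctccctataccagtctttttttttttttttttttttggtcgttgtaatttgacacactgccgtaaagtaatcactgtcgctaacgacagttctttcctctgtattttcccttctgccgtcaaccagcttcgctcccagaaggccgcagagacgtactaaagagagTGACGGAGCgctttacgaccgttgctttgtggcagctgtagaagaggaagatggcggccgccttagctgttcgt

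Counting the first base of the gene as position 0, the interferon motif began at -73 and again at -17 in Psmb10, at -4 in Psmb8 and at -53 in Psme2. The CCAAT match marked in Psmb9 began at 22, after the start of the gene. The antioxidant motif began at -60 in Psmb5 and at -24 in Psmb6. The third counterpart, Psmb7, has no match to it in its window, which holds CCAAT on the minus strand at -250 and on the plus strand at -109.

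Psmb10 was the most variable of the catalytic genes, with levels of 6.32, 6.50, 7.29 and 7.51 on replicates 1 to 4 (mean 6.91 ± 0.58, SD, n = 4). Replicates 1 and 2 were the low arrays, and the lowest and the highest array differed 2.28-fold. Psmb9 had 5.85, 5.79, 6.13 and 6.35 (6.03 ± 0.26). Psmb8 had 6.86, 6.85, 7.06 and 7.26 (7.01 ± 0.19), and its 2 spots differed by no more than 0.10 log2 units on each array. Both of these were likewise higher on replicates 3 and 4 than on replicates 1 and 2, over a narrower range than Psmb10.

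The constitutive counterparts had SDs from 0.09 to 0.32. Psmb7 had 5.10, 5.12, 4.94 and 4.95 (5.03 ± 0.09), the narrowest range of the 6. Psmb6, which has 2 probes, had 7.42, 7.44, 7.65 and 7.83 on the brighter one (7.59 ± 0.19) and a mean of 7.51 on the other. Psmb5 had 7.31, 7.22, 7.46 and 7.94 (7.48 ± 0.32), with replicate 4 above the others.

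The ratio within an array is unchanged by any scaling that shifts a whole array, which quantile normalization does not do. The log2 ratio of Psmb10 to Psmb7 lay -0.66, -0.50, 0.47 and 0.68 from its own mean on replicates 1 to 4, a range of 2.53-fold. For Psmb9 over Psmb6 the same deviations were -0.01, -0.10, 0.03 and 0.08, and for Psmb8 over Psmb5 they were 0.02, 0.11, 0.07 and -0.20. These ranges are 1.14-fold and 1.24-fold, so with the processed signal a wide change in ratio was seen in 1 of the 3 pairs. Background correction changes that picture for the other pairs: after normexp correction the ranges were 2.28-fold for Psmb10 over Psmb7, 1.58-fold for Psmb9 over Psmb6 and 1.69-fold for Psmb8 over Psmb5. In the same order, they were 2.46-fold, 1.22-fold and 1.20-fold with quantile normalization. No array was set against another by a test, since all 4 are replicates of 1 group.

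**Figure D2:**
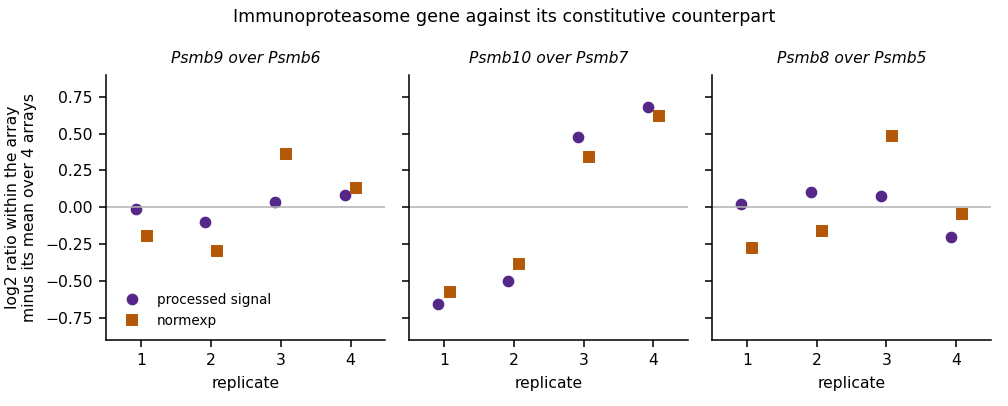
Log2 ratio of each immunoproteasome gene to its constitutive counterpart within each array, minus the mean of that ratio over the 4 arrays, against replicate; circles are from the processed signal and squares from normexp background correction. Psmb10 over Psmb7 runs from -0.66 to 0.68 with the processed signal and stays wide with normexp, while the other pairs widen only with normexp.

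To compare groups of genes on each array, a gene's deviation from its own mean over the 4 arrays was taken relative to the median deviation of all detected genes, which by construction leaves 50.0% of all detected genes above 0 on each array. This reference was needed because the median deviation over all detected genes was -0.07, -0.07, 0.06 and 0.10 on replicates 1 to 4 but 0.37, 0.49, -0.09 and -0.75 once arrays were scaled to their spike-in signal. Relative values are unchanged by any scaling that shifts a whole array. Statements that a level was high or low on an array hold for the 75th percentile: with spike-in scaling the plain median deviations of the 3 immunoproteasome genes turned from -0.18, -0.24, 0.10 and 0.32 to 0.25, 0.31, -0.04 and -0.52. Taken relative to the median deviation of all detected genes, the 3 immunoproteasome genes had medians of -0.11, -0.18, 0.04 and 0.23. Of these 3 genes, 0, 0, 2 and 3 lay above the median of all detected genes. With normexp the medians were -0.13, -0.18, 0.22 and 0.07. With other replicates left out they ranged from -0.17 to -0.03, -0.22 to -0.10, -0.02 to 0.13 and 0.17 to 0.25 on replicates 1 to 4, and the value on replicate 3 turned to -0.02 when replicate 2 was left out. Set against all measured genes, most of them not detected, the medians on replicates 1 and 4 turned to 0.03 and -0.08.

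The alpha subunits, which form the outer rings and the gate of the core, lay the other way from the 3 immunoproteasome genes. That direction was also the one of the whole set, which includes them. Over the 46 detected proteasome genes the median relative deviations were 0.10, 0.10, -0.08 and -0.11 on replicates 1 to 4. Of these 46 genes, 28, 29, 15 and 16 were above the median of all detected genes. For the alpha subunits the median relative deviations were 0.27, 0.37, -0.15 and -0.53 on replicates 1 to 4. Of the 7 detected alpha genes, 6, 7, 1 and 0 were above the median of all detected genes. The signs were the same with normexp (0.25, 0.39, -0.21 and -0.52), with quantile normalization (0.29, 0.37, -0.16 and -0.54) and with each replicate left out in turn. Their size was less stable: with other replicates left out, the median ranged from 0.09 to 0.43 on replicate 1, from 0.18 to 0.48 on replicate 2, from -0.30 to -0.05 on replicate 3 and from -0.60 to -0.35 on replicate 4. The smallest values on replicates 1 and 2 came without replicate 4, that on replicate 3 without replicate 2 and that on replicate 4 without replicate 1. Replicate 4 was also the dimmest array, and the part of array brightness in these values was not tested.

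Psma6 had 7.52, 7.51, 6.52 and 6.61 (7.04 ± 0.55), high on replicates 1 and 2 and about 1 log2 unit lower on the others. Its spot lies beside the area of low signal, in a block whose median residual on replicate 3 was -0.22, and RefSeq lists 5 pseudogenes under its name. Psma2 had 4.60, 4.82, 4.34 and 3.82 (4.40 ± 0.43). Psma3 had 2.74, 2.80, 2.41 and 2.03 (2.50 ± 0.35). Psma1 had 5.23, 5.37, 4.87 and 4.55 (5.01 ± 0.37), with its 2 spots no more than 0.22 log2 units apart on any array. In Psma1, Psma2 and Psma3 replicate 2 was the highest and replicate 4 the lowest array. Psma5 (6.10 ± 0.23) and Psma4 (4.95 ± 0.15) had the same highest and lowest arrays over a narrower range. Psma7 did not share the pattern: its levels were 6.33, 6.45, 6.50 and 6.46 (6.43 ± 0.07), from 8 or 9 usable spots on each array.

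**Figure D3:**
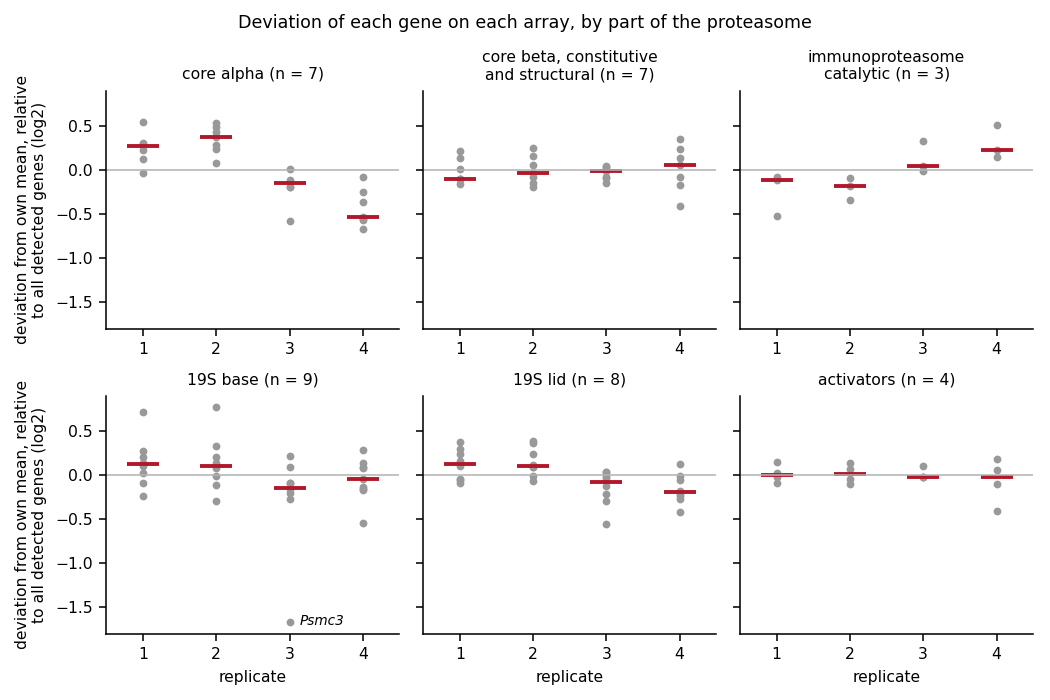
Deviation of each detected gene from its own mean over 4 arrays, relative to the median of all detected genes (log2 units), against replicate, for 6 groups of proteasome genes; points are genes and bars group medians. The alpha subunits have medians of 0.27, 0.37, -0.15 and -0.53, the immunoproteasome genes -0.11, -0.18, 0.04 and 0.23, and Psmc3 lies at -1.66 on replicate 3.

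The 7 constitutive and structural beta genes together had medians of -0.10, -0.03, -0.01 and 0.06, and 3, 3, 3 and 4 of them were above the median of all detected genes, where normexp gave 5, 6, 4 and 2. For the 4 structural genes normexp turned the median on replicate 4 from -0.01 to -0.17. With normexp the medians of the 3 constitutive catalytic genes turned from -0.10, -0.08 and 0.14 on replicates 1, 2 and 4 to 0.16, 0.12 and -0.06. Psmb2 had the second smallest SD of all detected members, at 6.50, 6.55, 6.60 and 6.57 (6.56 ± 0.04). Psmb4 had 7.72, 7.74, 8.04 and 8.28 (7.94 ± 0.27), and Psmb3 had 7.94 ± 0.16. Psmb1 had 5.89, 5.93, 5.71 and 5.44 (5.74 ± 0.22), with its lowest level where Psmb4 had its highest. RefSeq lists 7 pseudogenes under the name of Psmb3, and 19 of the 47 genes have at least 1; binding of pseudogene transcripts was not tested.

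The 4 probes printed 10 times show the noise between spots of an array for bright probes, with mean levels from 6.43 to 7.94. Such noise was not measured for the dim probes with 1 spot. For Psme1, Psme2 and Psmb4 the SD between usable spots of an array was between 0.03 and 0.08 log2 units, and for Psma7 it was between 0.04 and 0.13. The levels of Psmb4 on replicates 1 and 4 differed by 0.57, which is more than that noise, but spots of 1 array do not measure the error between arrays. Relative to the median of all detected genes, Psmb4 lay at -0.16 on replicate 1 and 0.24 on replicate 4. The spot of Psmb4 in the area of low signal read 4.55 on replicate 3 and 7.36 on replicate 4, and that of Psma7 read 3.51 and 5.71. The array software had marked all 4 of these values as outliers, and they were left out.

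**Figure D4:**
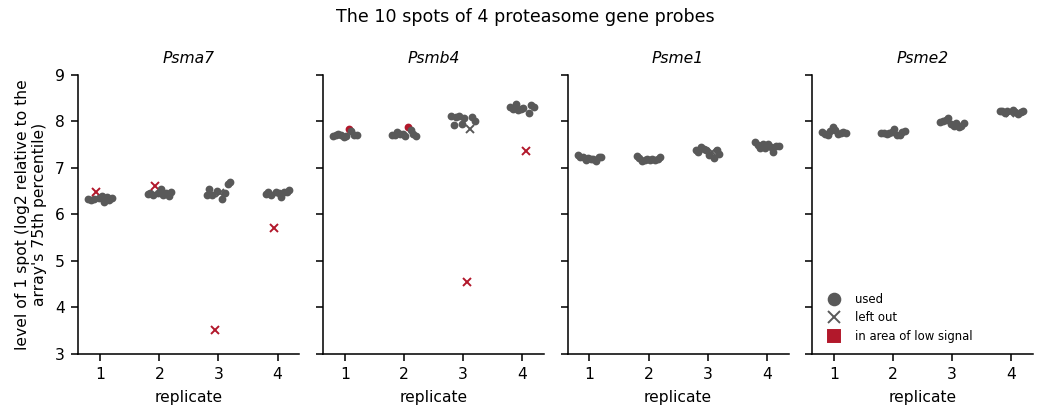
Levels of the 10 single spots (log2 units above the 75th percentile of its array) of the probes for Psma7, Psmb4, Psme1 and Psme2 on each replicate; crosses are spots left out as outliers and red marks the spot in the area of low signal. The red spots fall to 3.51 (Psma7) and 4.55 (Psmb4) on replicate 3, while the usable spots of each probe stay close together.

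In the 19S base, the ATPase ring that unfolds substrates, the 6 Psmc genes had median relative deviations of 0.17, 0.16, -0.14 and -0.10, with 5, 5, 1 and 2 of 6 above the median of all detected genes. With normexp the medians were 0.17, 0.24, -0.07 and -0.21, and with other replicates left out they ranged from 0.10 to 0.22, 0.09 to 0.21, -0.22 to -0.10 and -0.22 to -0.05. Psmc3 had the largest SD of all detected members, at 6.19, 6.24, 3.93 and 5.77 (5.53 ± 1.09). Its block of spots had a median residual of -2.10 on replicate 3, and without that array the mean was 6.07. That mean still includes replicate 4, on which spots of the area were also low, with a median of -0.29 against 0.14 elsewhere. Psmc5 had 7.85, 7.86, 7.67 and 7.88 (7.81 ± 0.09), so replicate 3 alone was low. Psmc6 had 2.51, 2.57, 2.28 and 1.87 (2.30 ± 0.32).

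Psmc2 had the third smallest SD, at 7.24, 7.19, 7.14 and 7.11 (7.17 ± 0.06). Psmc4 lay the other way from Psmc6, at 4.65, 4.62, 4.95 and 4.98 (4.80 ± 0.19). Psmc1 has 2 probes, which gave 7.30, 7.30, 6.95 and 7.08 on one and 4.79, 4.71, 4.41 and 4.35 on the other. The probes differed by over 1 log2 unit in level, and both were higher on replicates 1 and 2 than on the others.

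Among the non-ATPase genes of the base, Psmd2, a scaffold that docks ubiquitin shuttles, had 6.57, 6.52, 7.15 and 7.26 (6.88 ± 0.39), low on replicates 1 and 2. Psmd1, the other scaffold, had 6.96, 6.97, 6.80 and 6.86 (6.90 ± 0.08). Psmd4, a receptor for ubiquitin chains, had 6.02, 5.98, 5.97 and 6.26 (6.06 ± 0.13). Over the 3 genes the medians were 0.03, -0.01, -0.14 and 0.10, with 2, 1, 1 and 2 of 3 above the median of all detected genes, and normexp gave -0.03, -0.03, 0.09 and -0.03.

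The 8 genes of the lid had medians of 0.13, 0.10, -0.07 and -0.19, with 5, 6, 2 and 1 of 8 above the median of all detected genes, and normexp gave 0.21, 0.22, -0.13 and -0.30. With other replicates left out the lid medians ranged from 0.07 to 0.17, 0.06 to 0.15, -0.11 to -0.06 and -0.21 to -0.12. Psmd12 had 6.04, 6.05, 5.24 and 5.59 (5.73 ± 0.39), and its spot also lies beside the area of low signal, in a block with a residual of -0.26. Psmd14, the deubiquitinase that removes ubiquitin chains from the substrate, had 3.68, 3.81, 3.35 and 3.19 (3.51 ± 0.29). Psmd11, like Psmc5, had 1 array apart from the rest, which was so for 2 of the 46 genes where 3.18% of all detected genes met the same criterion. Its levels were 3.70, 3.70, 3.71 and 3.55 (3.67 ± 0.08), with replicate 4 alone low. Psmd6 (5.38 ± 0.24) was high on replicates 1 and 2, while Psmd3 (3.85 ± 0.17) was highest on replicate 4. The other lid genes, Psmd7, Psmd8 and Psmd13, had SDs between 0.08 and 0.11.

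The medians of the 4 activator genes stayed close to those of all detected genes, while single genes lay on both sides. Psme1 and Psme2 encode the interferon-inducible cap that opens the core for peptide production, Psme3 a related nuclear cap, and Psme4 a large cap linked to chromatin. Psme1 had 7.21, 7.19, 7.35 and 7.46 (7.30 ± 0.13). Psme2, its partner in the cap, had 7.77, 7.75, 7.96 and 8.21 (7.92 ± 0.21). Both were lowest on replicate 2 and highest on replicate 4, and their ratio within an array changed by no more than 1.14-fold. Psme3 had the smallest SD of all detected members, at 2.67, 2.71, 2.74 and 2.71 (2.71 ± 0.03), from a single spot with 4 pseudogenes listed under its name. Psme4 had 0.12, 0.11, 0.21 and -0.27 (0.04 ± 0.21), with replicate 4 low. Over the 4 genes the median deviations relative to all detected genes were 0.00, 0.01, -0.02 and -0.02, and with normexp they were 0.01, 0.02, 0.00 and -0.05. On replicate 4 the processed signal gave relative deviations of 0.06 for Psme1 and 0.19 for Psme2, but -0.10 for Psme3 and -0.41 for Psme4.

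Psmf1 encodes an inhibitor of the core. It had 3.81, 3.75, 4.22 and 4.32 (4.02 ± 0.29), with the last 2 values above the others. Its deviations from the median of all detected genes lay at -0.15, -0.21, 0.14 and 0.20, and at -0.06, -0.08, 0.08 and 0.05 with normexp.

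Chaperones that assemble the complex were detected in each case measured. For the core, Psmg2 had 2.26, 2.24, 2.08 and 1.83 (2.10 ± 0.20) and Psmg4 had 4.63, 4.63, 4.93 and 4.89 (4.77 ± 0.16), which lay opposite ways. A second probe of Psmg4 stayed at background on each array. For the base, Psmd10 had 0.68, 0.66, 0.27 and -0.10 (0.38 ± 0.37), lowest on replicate 4, while Psmd9 had 3.98, 3.97, 4.22 and 4.16 (4.08 ± 0.13) and Psmd5 had a mean of 2.21 ± 0.14. The rule also caught 2 genes named for a partner, which are not subunits: Psmc3ip, a factor of meiotic recombination, had a mean of 1.28 ± 0.13, and Psme3ip1, a binding partner of Psme3, had 1.42 ± 0.28.

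**Figure D5:**
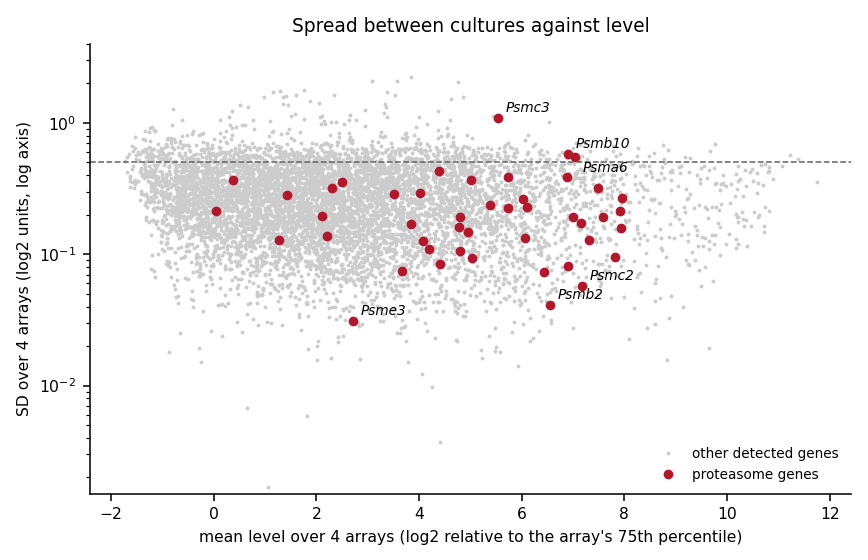
SD over 4 arrays (log2 units, log axis) against mean level (log2 units above the 75th percentile of its array) for the 46 detected proteasome genes in red and the other detected genes in grey; the dashed line is an SD of 0.5. Psmc3, Psmb10 and Psma6 lie above the line, and Psme3, Psmb2 and Psmc2 have the smallest SDs of the red points.

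Windows before the gene start were found in RefSeq for 43 of the 47 genes, and not for Psma7, Psmd6, Psmd12 and Psmd14. The interferon motif (GAAA, any 2 bases, GAAA), searched on both strands like the others, occurred in 7 of the 43 (16.3%), in 3.92% of all 33469 windows of this length and in 3.24% of the 6518 windows of detected genes. These 7 were Psma4, Psmb3, Psmb8, Psmb10, Psmd7, Psme2 and Psmg4, so the motif was not limited to the interferon-inducible members. It was also absent from the windows of Psmb9 and Psme1, which are interferon-inducible. The antioxidant motif TGACNNNGC occurred in 8 (18.6%, against 12.1% of all windows and 15.1% of those of detected genes), and CCAAT in 22 (51.2%, against 37.5% and 39.3%). TTCNNNGAA, the site of STAT factors, occurred in 4 (9.30%, against 8.87% and 6.83%), and ACTACA, any 2 bases and TCCC, a site of ZNF143, in 3 (6.98%, against 1.75% and 4.48%). Among the members, matches of different motifs overlapped in Psmb2 only, between the antioxidant motif and CCAAT. These matches describe letters in a window and were not tested for binding.

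The other genes of the pathway were taken from a list of 41 genes, of which 34 were measured and 33 detected (97.1%, where 44.4% of all measured genes were). Ddi2, a shuttle protease that activates NFE2L1, was the exception, at -4.54, -4.13, -4.25 and -3.43, and was well above background on 0 arrays. The genes of NFE2L1 itself (Nfe2l1) and of Nlrc5, the regulator of class I genes, were not measured. An SD above 0.5 was found for 3 of the 33, namely Ufd1, Ngly1 and Tapbp, which is near the share of 11.6% among all detected genes. Ufd1, an adaptor of the Vcp segregase, had 3.58, 3.70, 1.52 and 2.27, and its spot lies in the area of low signal. Ngly1, which deglycosylates NFE2L1, had 3.37, 3.44, 2.67 and 2.42 (2.98 ± 0.51). Tapbp, the tapasin that loads class I molecules, had 2.07, 2.21, 2.96 and 3.15 (2.60 ± 0.54).

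Of 12 listed factors that bind or mature the complex, 8 were measured and these 8 were detected, while Uchl5, Ecpas, Ube3c and Zfand5 were not measured. Pomp, the chaperone that matures the core, had 8.36, 8.42, 8.16 and 8.22 (8.29 ± 0.12). Adrm1, a ubiquitin receptor of the base, had -0.71, -1.10, -0.13 and -0.21 (-0.54 ± 0.46), low on replicates 1 and 2.

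Tap1 and Tap2 encode the transporter that carries proteasome peptides to class I molecules, and in RefSeq they stand next to Psmb8 and Psmb9 on chromosome 20, in the order Tap2, Psmb8, Tap1, Psmb9. Tap2 had 3.15, 3.26, 3.59 and 3.96 (3.49 ± 0.37), and Tap1 had 0.56, 0.61, 1.21 and 1.29 (0.92 ± 0.38). Like their neighbours in the cluster, both were higher on replicates 3 and 4 than on replicates 1 and 2. This was not particular to the cluster: it was also seen in genes elsewhere such as Psmb6 and Psmd2, though not in Psma1 or Psma6. The median deviation of all detected genes was likewise -0.07, -0.07, 0.06 and 0.10 on replicates 1 to 4. The ratio of Tap1 to Psmb9 within an array changed by 1.29-fold and that of Tap2 to Psmb8 by 1.33-fold. Over the 8 detected genes of class I presentation the median deviations relative to all detected genes were -0.13, -0.12, 0.07 and 0.11, with 3, 3, 5 and 4 of 8 above the median of all detected genes. These counts are near the background of 50.0%.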

How the data were processed

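RNA of 4 exposed NR8383 cultures was measured on 1-colour Agilent arrays. Spot intensities (processed signal) and the flags for background, saturation and outliers are those of Agilent Feature Extraction 11.0.1.1, per the file headers and the submitters' processing notes. The deposited flags, of unit other, were used for detection and to leave out outlier spots, and 0 sample spots were saturated. The headers name the build rn4, whose coordinates were not used here.

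Of 45598 sample probes, 21109 were named through RefSeq (GRCr8) from their accessions. Spots of a probe were averaged, the array's 75th percentile over probes was subtracted on the log2 scale, and the brightest probe stood for a gene. Values were computed with Python 3.11.15, numpy 2.4.6 and pandas 2.3.3, and normexp (offset 50) with limma 3.58.1 in R 4.3.3. The SDs, the share of genes with an SD above 0.5, the median shifts and the rule for 1 array apart were tried on simulated gene levels. That simulation did not cover naming, probe choice or detection. There is 1 group, so values carry the SD over 4 cultures and no p-value, and the number of arrays limits precision. The gMeanSignal column planned for normexp was not in the files used, and the median signal took its place.

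The proteasome genes, their roles, the pathway and marker lists and the motifs were chosen with earlier results of these data known. Values on each array are given for the catalytic pairs, activators and inhibitor, for genes not detected, with an SD above 0.5, with the 3 smallest SDs, with probes over 1 log2 unit apart or with 1 array apart, and for the highest and lowest probe of each role. Of the pathway list, they are given for genes not detected or with an SD above 0.5 and for Pomp, Adrm1, Tap1 and Tap2. Psma1, Psma2, Psma7, Psmc4 and Psmd2 fall outside this rule and were shown after their values were seen. Alternatives covered detection, outlier spots, background, scaling, probe choice, the area of low signal and leaving out each replicate.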

Additional observations from a re-analysis of the deposited data

Results flagged for a closer look

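Among the detected proteasome genes, 2 had 1 array far from the other 3, by the ratio of that array's gap to the gene's whole range, which passed Dixon's critical value at 95% for 4 samples. Psmc5 was lowest on replicate 3, with a ratio of 0.873. Psmd11 was lowest on replicate 4, with a ratio of 0.914. Both genes have small SDs (0.09 and 0.08 log2 units). Chance alone puts about 1 in 20 groups past this value, and 3.18% of all detected genes were past it.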

How the results depend on the processing

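Detection varied little: 46 proteasome genes were detected, with 42 to 47 over the alternatives, and 30 to 33 pathway genes. The lowest counts came from leaving out the area of low signal with its neighbouring blocks, an alternative chosen after seeing the data, as was the percentile over spots. In that setting only 43 proteasome genes were still measured, of which 42 were detected. Psmc3, Psma6, Psmd3 and Psmd12, whose only spots lay there, dropped out. The median level of 5.21 became 4.41 with normexp, -0.66 with spike-in scaling, 1.102 with the percentile over detected probes, 2.63 with that over spots and 2.62 with quantile normalization; leaving out replicates gave 5.15 to 5.26. The median SD became 0.70 with spike-in scaling and was 0.13 to 0.22 without single replicates. The count with an SD above 0.5 became 6 with normexp and 35 with spike-in scaling, and was 3 to 4 without single replicates. It became 1 (Psmb10) without the area and its neighbouring blocks, where Psmc3 and Psma6 were no longer measured. The share of all detected genes with such an SD is not given for these settings. The plain median shifts of the detected members on replicates 1 to 4 were 0.035, 0.030, -0.023 and -0.016. They became 0.11, 0.21, 0.052 and -0.35 with normexp, 0.47, 0.59, -0.17 and -0.87 with spike-in scaling, and 0.103, 0.088, -0.056 and -0.109 with the percentile over detected probes. On replicates 1, 2 and 4 they became 0.088, 0.071 and -0.089 with the percentile over spots and 0.081, 0.071 and -0.071 with quantile normalization, and on replicate 1 0.0041 without the area and its neighbouring blocks. Without single replicates they ranged from -0.0023 to 0.048, 0.0043 to 0.050, 0.0063 to 0.018 and -0.070 to -0.0039. The cause of these moves was not tested, except that constant scalings shift each array as a whole. Naming by a gene name column was not run, since the files used have none. No paired analysis was possible because there is 1 group. Dim probes such as that of Psme4 lie near the background, where these values are least certain.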
